A study of Homo sapiens with 12 samples.

Results

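Described here are 42 human genes of the lysosome and of the vacuolar H+-ATPase (V-ATPase), the proton pump that acidifies it, measured in HCT116 cells with and without trametinib, which blocks the kinases MEK1 and MEK2. The genes were taken by symbol from a ribosome profiling table of 15798 genes, where all 42 were found. The rule names them by symbol and uses no measured value, but the list was drawn up with earlier results of these data known. Of these, 15 encode V-ATPase subunits or accessory proteins and 27 encode lysosomal membrane proteins, hydrolases and their activators. For 40 of them at least 3 of the 6 input libraries held 10 counts or more, as did those of 10663 genes in all, and these 40 were tested.

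HCT116 is an established human colorectal cancer line of epithelial origin. Dishes of it received either 100 nM trametinib or the solvent DMSO for 24 h, were briefly exposed to cycloheximide, which halts ribosomes on their mRNA, and were then lysed. From each lysate an aliquot served as input RNA and was broken at random, while the rest was digested with RNase I, and the fragments protected by single ribosomes (footprints) were isolated. This gave 4 groups of 3 biological replicates, DMSO input, trametinib input, DMSO footprints and trametinib footprints, all from a single line at a single dose and time and without a second MEK inhibitor.

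Lysosomes are the acidic organelles in which cells break down proteins, glycans and lipids, and their surface is the platform on which amino acids activate mTORC1. In the V-ATPase, the V1 sector in the cytosol hydrolyses ATP and drives proton transport through the V0 sector in the membrane. Many lysosomal genes carry an E-box in their promoter that is read by TFEB, TFE3 and MITF, the MiT/TFE transcription factors, which mTORC1 and ERK are known to phosphorylate.

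Input libraries held 2276693 to 2845568 reading-frame counts and footprint libraries 10127477 to 19181588, so that input was the less precise assay. The median standard error (SE) of a log2 change was 0.173 for the lysosomal and V-ATPase genes in input and 0.135 in footprints. DUSP6, a feedback phosphatase whose transcription depends on ERK, fell by 7.63 on the log2 scale in trametinib input (adjusted p = 3.31e-08), in the direction of the treatment labels. It held 515 to 748 counts per DMSO input library and 0 to 5 per trametinib input library. DUSP6 thus passed the filter through DMSO input alone, and the size of its change rests on very low counts. Among epithelial markers EPCAM, KRT8 and KRT18 were abundant in every library, whereas the intestinal markers CDX1 and VIL1 held 0 to 2 counts per library. PTPRC and PECAM1, markers of leukocytes and endothelium, held at most 3 counts. The fibroblast marker COL1A1 held 14 to 36 counts in input and 78 to 148 in footprints, and it passed the filter for testing. Levels below are CPM (counts relative to library size), adjusted by the TMM method (trimmed mean of M values) within each assay and given for replicates 1, 2 and 3 in that order. Each change is the log2 ratio of trametinib to DMSO ± SE, and adjusted p-values are from edgeR's quasi-likelihood test with Benjamini-Hochberg adjustment over all 10663 genes. An adjusted p under 0.05 was the threshold for a call. Since every library was scaled to the others, a change common to all mRNAs cannot be seen in these values.

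The E-box of MiT/TFE target genes is a palindrome, and its forms in the promoters of the set are printed first, because they are the regulatory letters that this gene family is known for. Promoters were RefSeq sequences on GRCh38.p14 from 250 bases before to 50 bases after the start of the gene, and 30 of the 42 genes had an entry. The windows below are 30 bases on the strand of the gene, 5′ to 3′, all centred upstream of the start, with the longest matching form in capitals. Shown are 4 genes that rose in input and footprints and then 3 that did not rise.
GAA, chr17:80101493-80101522, plus strand: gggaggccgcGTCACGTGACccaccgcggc
CTSA, chr20:45891298-45891327, plus strand: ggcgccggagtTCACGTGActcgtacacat
NEU1, chr6:31862930-31862959, minus strand: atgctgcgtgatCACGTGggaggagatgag
CTSD, chr11:1763957-1763986, minus strand: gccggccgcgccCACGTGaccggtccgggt
MCOLN1, chr19:7522598-7522627, plus strand: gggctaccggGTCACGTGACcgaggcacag
ATP6V1G1, chr9:114587699-114587728, plus strand: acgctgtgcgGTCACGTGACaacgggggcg
ATP6V0D1, chr16:67481199-67481228, minus strand: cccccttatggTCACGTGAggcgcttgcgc

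The core CACGTG reads the same on either strand, and it is contained in the longer form TCACGTGA and in the full form, which adds G before and C after that. CACGTG was found in 10 of the 30 promoters of the set (33.3%), against 7.43% of 27305 human promoters and 10.5% of the 8717 promoters of tested genes. TCACGTGA was found in 6 (20%, against 1.04% of all promoters and 2.02% of those of tested genes), and the full form in 3 (10%, against 0.381% and 0.837%). The centre of the palindrome lay 73 bases before the start in GAA, 22 in CTSA, 123 in NEU1, 44 in CTSD, 11 in MCOLN1, 55 in ATP6V1G1 and 56 in ATP6V0D1. GAA and MCOLN1 each held a further TCACGTGA or longer form, and LAMP1 held 6 copies of the core. Among the matched genes that rose in footprints, CACGTG stood in 6 of 18 promoters (33.3%), and among the other matched genes in 4 of 12 (33.3%). TCACGTGA stood in 3 of the 18 (16.7%) and 3 of the 12 (25%). For the full form the counts were 1 (5.56%) and 2 (16.7%). The 12 include ATP6V0C, which was not tested for change, and the differences were not tested. GRN, LIPA, GLB1 and TPP1, which rose in footprints, had none of these letters in the window. A match is a description of the sequence and not a measured binding site.

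The first comparison asked which of these mRNAs changed in abundance. In input, 16 of the 40 tested genes were higher (40%) and 0 were lower, whereas 32.1% of all genes tested were called, 15.4% higher and 16.8% lower. The median change of the 40 was 0.39, compared with -0.00 over all genes. Of the 26 lysosomal genes tested outside the V-ATPase, 15 rose and their median was 0.64, while 1 of 14 V-ATPase genes rose and their median was 0.10. Without replicate 2 of DMSO input the V-ATPase median was 0.16. All 3 trametinib libraries lay above all 3 DMSO libraries for 21 of the 40 genes, against 23.5% of all genes, and below them for ATP6V0B and ATP6V1H (23.2% of all genes). At an unadjusted p under 0.05, 19 of the 40 were higher and 2 lower in input, and over all genes 4579 of 10663 passed, 2243 of them higher. More mRNA per cell and a shift in the mix of cells cannot be told apart in such bulk libraries.

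In footprints 25 of the 40 were higher (62.5%) and 3 were lower, whereas 49.4% of all genes were called, 23.9% higher and 25.6% lower. Their median change was 0.59, compared with -0.01 over all genes. The 26 lysosomal genes outside the V-ATPase had 20 higher, 3 lower and a median of 0.83, and the 14 V-ATPase genes had 5 higher, 0 lower and a median of 0.31. Each of the 16 genes that rose in input also rose in footprints, 9 more passed the threshold in footprints alone, and 12 passed it in neither assay. For 27 genes all trametinib footprint libraries lay above all DMSO libraries (29.3% of all genes), and for 2 they lay below (30.3%). The difference between V-ATPase and other lysosomal genes was not tested.

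**Figure D1:**
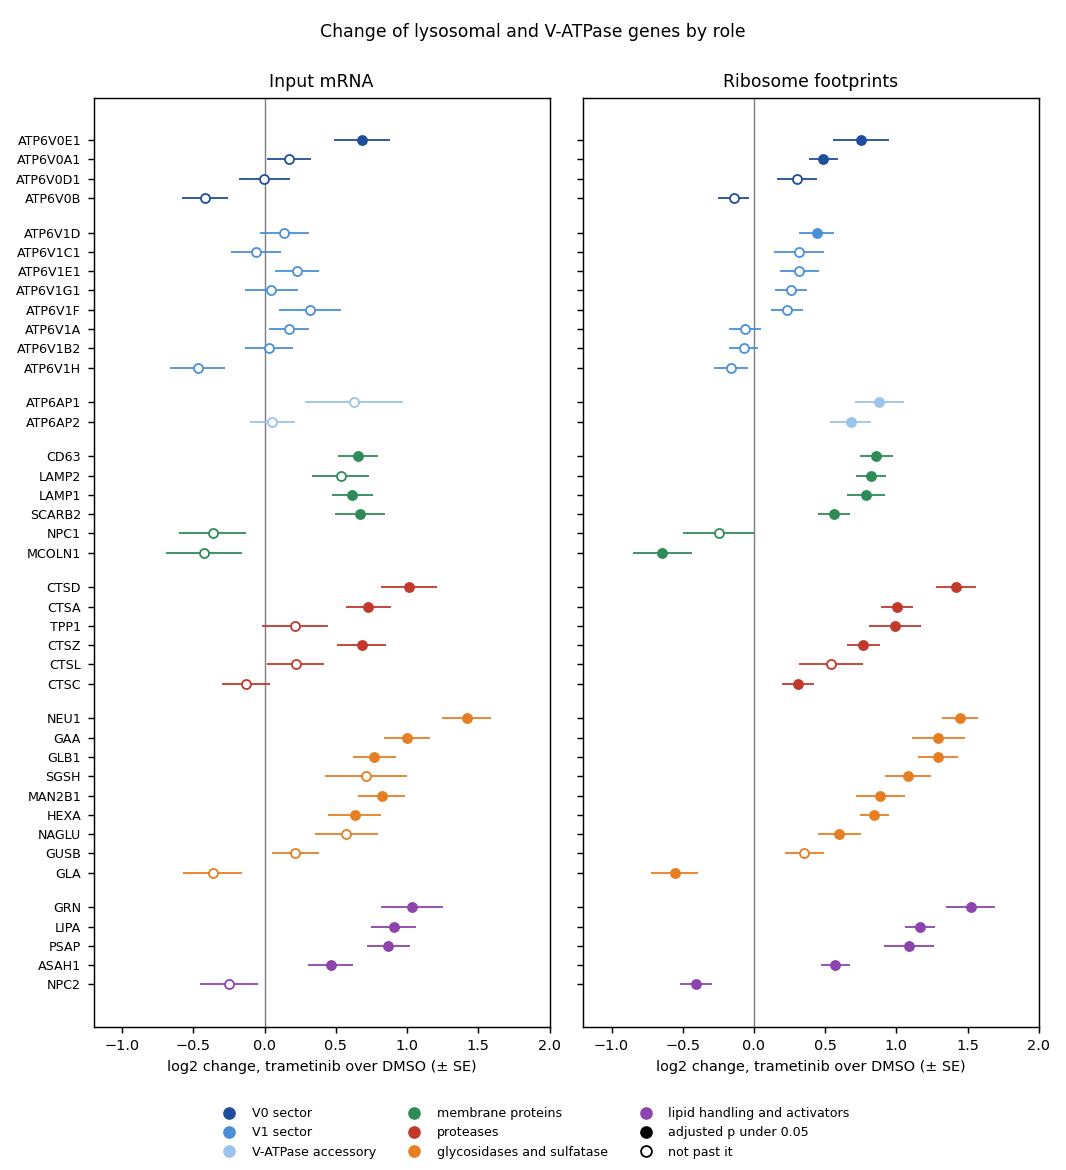
Log2 change of trametinib over DMSO (x axis) for the 40 tested genes in input (left) and footprints (right), with 3 libraries per group. Points are edgeR estimates, whiskers are SE, colours give the role and filled points passed an adjusted p under 0.05. Filled points on the right of 0 number 16 in input and 25 in footprints, and the only filled points on the left are MCOLN1, GLA and NPC2 in footprints.

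As a share of all counts in the library, the 42 genes took 0.355% ± 0.0138 of DMSO input and 0.527% ± 0.00828 of trametinib input (SD, n = 3). In footprints the share was 0.484% ± 0.0394 with DMSO and 0.935% ± 0.0579 with trametinib, and in neither assay did the libraries of the treatments overlap. PSAP alone contributed many of these counts. Without it, the lysosomal genes outside the V-ATPase still went from 0.181% ± 0.00959 to 0.280% ± 0.00530 of input and from 0.221% ± 0.0189 to 0.446% ± 0.0398 of footprints. The V-ATPase genes took 0.0882% ± 0.00505 and 0.0917% ± 0.00123 of input, values within the spread of the libraries, and 0.146% ± 0.00618 and 0.207% ± 0.00678 of footprints. These shares rest on library totals. With that scaling the median footprint change of all genes tested was 0.16 instead of -0.01. Part of each rise in footprint share was therefore common to the typical gene.

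Among activators and lipid-handling proteins, GRN, LIPA, PSAP and ASAH1 rose in both assays and NPC2 fell in footprints. GRN encodes progranulin, a secreted glycoprotein that is cleaved into granulins in the lysosome. Its input level was 256, 159.8 and 256 CPM with DMSO and 412, 368 and 597 CPM with trametinib, a change of 1.04 ± 0.22 (adjusted p = 0.00304). Footprints on GRN were 267, 209 and 178 CPM with DMSO and 656, 689.5 and 533 CPM with trametinib, a change of 1.52 ± 0.17 (adjusted p = 0.000156). Every trametinib library was above every DMSO library in both assays, although replicate 3 of trametinib input stood well above its fellows. LIPA is the acid lipase that frees cholesterol and fatty acids. With DMSO its input was 46.0, 48.6 and 46.9 CPM and with trametinib 95.4, 86.5 and 82.9 CPM (0.90 ± 0.15, adjusted p = 0.000755). LIPA footprints were 85.3, 99.8 and 85.9 CPM with DMSO and 203, 203 and 202 CPM with trametinib (1.17 ± 0.11, adjusted p = 4.75e-05). In both assays the treatments were apart.

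PSAP encodes prosaposin, the precursor of the saposins that present sphingolipids to their hydrolases. Its input level was 1030.4, 759 and 772 CPM with DMSO and 1501, 1642 and 1538 CPM with trametinib (0.87 ± 0.15, adjusted p = 0.000816). PSAP footprints were 1594, 1123 and 1033 CPM with DMSO and 2744, 2685 and 2559 CPM with trametinib (1.09 ± 0.18, adjusted p = 0.00105). Replicate 1 was the highest DMSO library in both assays, yet it stayed below all trametinib libraries. Acid ceramidase, ASAH1, changed by 0.46 ± 0.16 in input (adjusted p = 0.0414) and by 0.57 ± 0.10 in footprints (adjusted p = 0.00164). Its call in input was lost without DMSO input replicate 2 or 3 or trametinib input replicate 1 or 2, with adjusted p-values up to 0.160, and in DESeq2 (adjusted p = 0.0687). NPC2, which binds cholesterol in the lumen and passes it to NPC1, moved the other way. Footprints on it were 83.9, 98.3 and 101 CPM with DMSO and 75.5, 67.5 and 69.9 CPM with trametinib, all lower than any DMSO library (-0.41 ± 0.11, adjusted p = 0.0152). That call was lost without replicate 2 of DMSO footprints or replicate 2 or 3 of trametinib footprints, and when libraries were scaled to their totals (-0.23, adjusted p = 0.124). NPC2 input changed by -0.25 ± 0.20 (adjusted p = 0.383).

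Of the 9 genes for glycosidases and the sulfatase SGSH, 5 rose in input and 7 in footprints, and 1 fell in footprints. Over all genes tested, 15.4% rose in input, while 23.9% rose and 25.6% fell in footprints. NEU1, the lysosomal sialidase, had the largest input change of the set. With DMSO it measured 24.1, 23.2 and 27.0 CPM in input and with trametinib 65.1, 71.5 and 61.9 CPM (1.42 ± 0.17, adjusted p = 4.99e-05). Footprints on NEU1 were 26.5, 30.4 and 25.8 CPM with DMSO and 80.8, 79.0 and 65.0 CPM with trametinib (1.45 ± 0.13, adjusted p = 3.66e-05). The lowest trametinib value was above the highest DMSO value in both assays, and input and footprints changed to a like extent. GAA, the acid glucosidase that degrades glycogen, rose from 184, 133 and 182 CPM to 319, 315 and 361 CPM in input (1.00 ± 0.16, adjusted p = 0.000516). In footprints GAA went from 183, 150.1 and 113 CPM to 403, 377 and 313 CPM (1.29 ± 0.18, adjusted p = 0.000539), again without overlap. GLB1, the acid galactosidase, had input levels of 76.7, 72.8 and 63.6 CPM with DMSO and 118, 129.9 and 116 CPM with trametinib (0.77 ± 0.15, adjusted p = 0.00211). GLB1 footprints were 69.9, 58.5 and 54.0 CPM with DMSO and 161, 158 and 128 CPM with trametinib (1.29 ± 0.14, adjusted p = 0.000124). Here too the treatments did not overlap.

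MAN2B1, the acid mannosidase, had input values of 46.7, 37.0 and 48.1 CPM with DMSO and 75.6, 81.6 and 75.5 CPM with trametinib (0.82 ± 0.17, adjusted p = 0.00250). Its footprints were 17.1, 17.1 and 11.6 CPM with DMSO and 30.1, 28.3 and 25.9 CPM with trametinib (0.89 ± 0.17, adjusted p = 0.00277). The libraries of the treatments were apart in both assays. SGSH, the sulfamidase of heparan sulfate breakdown, was weakly expressed, with 18 to 45 counts per input library. It measured 6.57, 9.79 and 11.1 CPM in DMSO input and 12.1, 19.8 and 13.2 CPM in trametinib input, a change of 0.71 ± 0.29 that missed the threshold (adjusted p = 0.0786). Footprints on SGSH rose from 15.7, 14.8 and 13.7 CPM to 31.7, 36.8 and 25.1 CPM (1.08 ± 0.16, adjusted p = 0.000721). Trametinib values were higher than all DMSO values in both assays, input included. HEXA, a subunit of hexosaminidase, rose by 0.63 ± 0.19 in input (adjusted p = 0.0202) and by 0.85 ± 0.10 in footprints (adjusted p = 0.000230). Its input call was lost without DMSO input replicate 2 (adjusted p = 0.0602) or trametinib input replicate 2 (adjusted p = 0.125). NAGLU, which cuts the sugar chain of heparan sulfate, changed by 0.57 ± 0.22 in input (adjusted p = 0.0614) and rose by 0.60 ± 0.15 in footprints (adjusted p = 0.0105, and 0.0508 without trametinib footprint replicate 2). GUSB, the glucuronidase, did not reach the threshold, at 0.22 ± 0.16 in input (adjusted p = 0.344) and 0.35 ± 0.14 in footprints (adjusted p = 0.0591). It was called in footprints without DMSO replicate 1 (0.44, adjusted p = 0.00995) or trametinib replicate 3 (0.47, adjusted p = 0.0243) and with library totals (0.53, adjusted p = 0.0109), and also with replicate number as a block (0.35, adjusted p = 0.0277).

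GLA, the acid galactosidase of globoside breakdown, was the exception among the glycosidases. Footprints on it were 40.2, 62.3 and 59.6 CPM with DMSO and 38.7, 34.9 and 36.4 CPM with trametinib (-0.56 ± 0.17, adjusted p = 0.0217). DMSO replicate 1 was only just above the trametinib libraries, and the other DMSO libraries were far above them. The call was lost in 5 of the 6 runs that left out a footprint library, with the exception of DMSO replicate 1, and with library totals (-0.38, adjusted p = 0.0925). GLA input changed by -0.37 ± 0.21 (adjusted p = 0.200).

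Of the 6 lysosomal proteases tested, 3 rose in input and 5 in footprints. Over all genes tested the shares that rose were 15.4% and 23.9%. CTSD, the aspartic protease cathepsin D, had input values of 24.8, 18.1 and 22.3 CPM with DMSO and 40.8, 42.6 and 48.3 CPM with trametinib (1.01 ± 0.19, adjusted p = 0.00167). CTSD footprints were 25.5, 29.8 and 21.8 CPM with DMSO and 66.7, 74.7 and 63.8 CPM with trametinib (1.42 ± 0.14, adjusted p = 6.72e-05). The treatments were apart in both assays, but 86.7% of the coding bases of CTSD in GENCODE v44 also belong to a gene of another symbol. The share was 38.3% for HEXA, 33.9% for MAN2B1 and 5.06% for MCOLN1. The authors counted only reads of a single symbol, on an earlier Gencode release, and how many bases that left out of these genes was not tested. CTSA, the carboxypeptidase that protects NEU1 and galactosidase in a complex, rose from 88.3, 107 and 116 CPM to 154, 179 and 184 CPM in input (0.73 ± 0.16, adjusted p = 0.00394). In footprints CTSA went from 129, 142 and 136 CPM to 279, 291 and 243 CPM (1.00 ± 0.11, adjusted p = 0.000149). No trametinib library of CTSA came down to the DMSO range.

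TPP1 is the tripeptidyl peptidase of the lysosome. Its input was 19.3, 23.9 and 25.8 CPM with DMSO and 32.8, 19.8 and 27.2 CPM with trametinib, which overlapped (0.21 ± 0.23, adjusted p = 0.519). TPP1 footprints were 56.1, 38.2 and 39.7 CPM with DMSO and 97.5, 98.2 and 70.8 CPM with trametinib, which did not (0.99 ± 0.18, adjusted p = 0.00231). The difference between the assays did not pass its own test, as given below for ribosome density. CTSZ, a cysteine carboxypeptidase, rose by 0.68 ± 0.17 in input (adjusted p = 0.00869, and 0.0529 without trametinib input replicate 1) and by 0.77 ± 0.12 in footprints (adjusted p = 0.000745). CTSC, which activates granule proteases, changed by -0.13 ± 0.17 in input (adjusted p = 0.583) and by 0.31 ± 0.11 in footprints, just past the threshold (adjusted p = 0.0481). That call was lost in 5 of the 6 runs without a footprint library, the exception being the run without DMSO replicate 1, and with replicate number as a block (adjusted p = 0.0519). CTSL, an endopeptidase, had footprints of 144, 76.8 and 93.1 CPM with DMSO and 179, 146 and 133 CPM with trametinib, a change of 0.54 ± 0.22 that was not called (adjusted p = 0.0717). Without DMSO footprint replicate 1, the library in which CTSL was highest, the change was 0.84 (adjusted p = 0.000136), and with replicate number as a block it was 0.58 (adjusted p = 0.0112). CTSB, cathepsin B, held 1 to 7 counts per input library and 6 to 33 per footprint library and was not tested for change. It shares 0% of its coding bases with another symbol, and whether these counts reflect its expression was not tested.

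**Figure D2:**
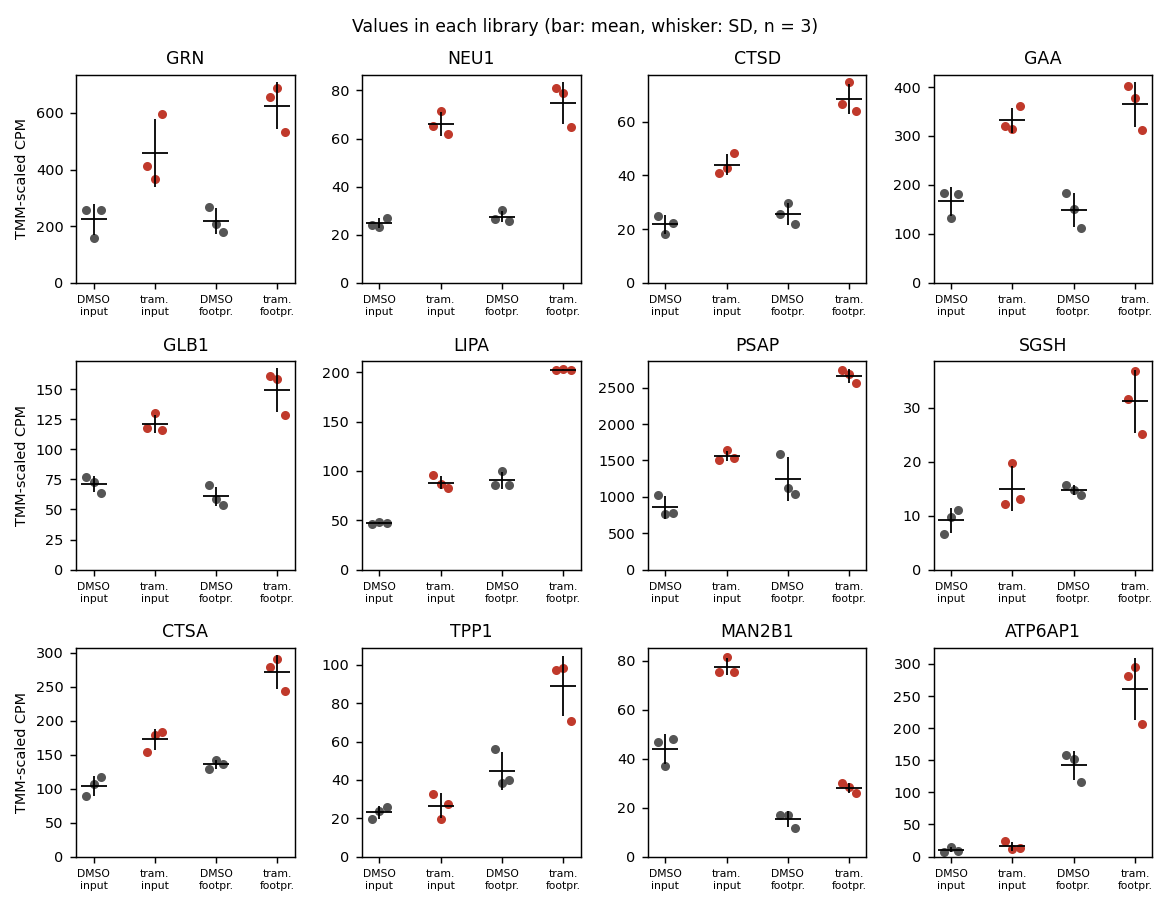
TMM-scaled CPM in each library (y axis, from 0, scaled within each assay) for the 12 genes with the largest called changes, with DMSO in grey and trametinib in red. Points are libraries, horizontal bars are means and whiskers are SD (n = 3). Trametinib points lie above DMSO points in both assays for all but TPP1 and ATP6AP1, whose input points overlap. The genes were picked by their change in these same libraries. Over all genes tested, trametinib libraries lay above for 23.5% in input and 29.3% in footprints.

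The lysosomal membrane proteins were divided. LAMP1, a heavily glycosylated protein that lines the membrane, rose by 0.62 ± 0.14 in input (adjusted p = 0.00563) and by 0.79 ± 0.13 in footprints (adjusted p = 0.00142). In footprints LAMP1 measured 354, 323 and 310.5 CPM with DMSO and 604, 623 and 477 CPM with trametinib, without overlap. LAMP2, its paralog that also acts in chaperone-mediated autophagy, rose by 0.82 ± 0.10 in footprints (adjusted p = 0.000297), and its input change of 0.53 ± 0.20 missed the threshold (adjusted p = 0.0585). The tetraspanin CD63 rose by 0.65 ± 0.14 in input (adjusted p = 0.00338) and by 0.86 ± 0.12 in footprints (adjusted p = 0.000433). SCARB2, the receptor that carries glucocerebrosidase to lysosomes, rose by 0.67 ± 0.17 in input (adjusted p = 0.0104, and 0.0556 without trametinib input replicate 1) and by 0.56 ± 0.11 in footprints (adjusted p = 0.00342). The other 2 membrane proteins did not rise. NPC1, which exports cholesterol, had input values of 186, 96.8 and 95.8 CPM with DMSO and 95.8, 107 and 91.3 CPM with trametinib. Its footprints were 239, 134 and 112 CPM with DMSO and 146, 138 and 126 CPM with trametinib. DMSO replicate 1 was the highest NPC1 library in both assays, and the treatments overlapped. The NPC1 input change was -0.36 ± 0.24 (adjusted p = 0.261), and 0.03 without that library. The NPC1 footprint change was -0.25 ± 0.25 (adjusted p = 0.439), and 0.16 without that library.

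MCOLN1, the calcium channel of the lysosomal membrane, had the lowest footprint change of the set. With DMSO its footprints were 9.86, 14.7 and 14.9 CPM and with trametinib 7.49, 9.99 and 7.72 CPM (-0.64 ± 0.20, adjusted p = 0.0282). The groups overlapped by a hair, since the highest trametinib library was above the lowest DMSO library. The call was lost without DMSO footprint replicate 2 or 3 or trametinib footprint replicate 1 or 3, with adjusted p-values up to 0.107, and with library totals (-0.47, adjusted p = 0.0914). MCOLN1 input changed by -0.43 ± 0.27 (adjusted p = 0.249), and each input library held between 26 and 55 counts. It is 1 of the genes printed above with the full form of the palindrome.

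Of the V-ATPase genes tested, 2 of 4 in V0, 1 of 8 in V1 and 2 of 2 accessory genes were higher in footprints. Over all genes tested the share was 23.9%. The difference between the parts of the pump was not tested. ATP6V0E1, a small V0 subunit, was the only V-ATPase gene called in input. Its input level was 22.3, 34.1 and 29.0 CPM with DMSO and 46.5, 43.0 and 47.4 CPM with trametinib (0.68 ± 0.20, adjusted p = 0.0180). ATP6V0E1 footprints were 53.9, 39.0 and 35.6 CPM with DMSO and 82.7, 78.2 and 55.4 CPM with trametinib (0.75 ± 0.20, adjusted p = 0.0121). The treatments did not overlap. The input call was narrowly lost without trametinib input replicate 1 (adjusted p = 0.0607) or 3 (adjusted p = 0.0640), and the footprint call without trametinib footprint replicate 1 (adjusted p = 0.0514) or 2 (adjusted p = 0.0501). ATP6V0A1, an isoform of the large V0 subunit that takes part in proton passage, changed by 0.17 ± 0.15 in input (adjusted p = 0.428) and rose by 0.49 ± 0.10 in footprints (adjusted p = 0.00451). ATP6V0D1, which couples the V0 ring to the central stalk, changed by -0.00 ± 0.18 and 0.30 ± 0.14 (adjusted p = 0.996 and 0.0995), and in footprints it was called with library totals (0.48, adjusted p = 0.0212). ATP6V0B, a proteolipid of the V0 ring, changed by -0.42 ± 0.16 in input (adjusted p = 0.0625) and by -0.14 ± 0.11 in footprints (adjusted p = 0.294). Without DMSO input replicate 2 its input change was -0.52 and passed the threshold (adjusted p = 0.0360). ATP6V0C, the major proteolipid, held 0 to 1 counts per input library and 0 to 11 per footprint library and was not tested. In GENCODE v44, 52% of its coding bases belong to other symbols too, and why it had so few counts was not tested.

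Of the 8 subunits of the V1 sector, 0 passed the threshold in input and ATP6V1D alone passed it in footprints. Over all genes tested, 32.1% passed it in input and 49.4% in footprints, in either direction. ATP6V1D, a subunit of the rotating stalk, changed by 0.14 ± 0.17 in input (adjusted p = 0.580) and rose by 0.44 ± 0.12 in footprints (adjusted p = 0.0159, and 0.0625 without trametinib replicate 3). The catalytic subunit ATP6V1A changed by 0.17 ± 0.14 in input and by -0.06 ± 0.11 in footprints (adjusted p = 0.386 and 0.661). Its partner in the head of V1, ATP6V1B2, changed by 0.03 ± 0.17 and -0.07 ± 0.10 (adjusted p = 0.914 and 0.591). For these subunits all footprint libraries lay close together, ATP6V1B2 between 138 and 157 CPM. The stalk and regulatory subunits ATP6V1C1, ATP6V1E1, ATP6V1F and ATP6V1G1 had footprint changes of 0.32, 0.32, 0.23 and 0.26 with adjusted p-values of 0.160, 0.0827, 0.116 and 0.0824. With library totals all 4 were called higher. ATP6V1C1 and ATP6V1E1 were also called without DMSO footprint replicate 3 (0.50 and 0.47), ATP6V1E1 with replicate number as a block (adjusted p = 0.0405), and ATP6V1G1 without DMSO footprint replicate 1 (0.35). ATP6V1H, a regulatory subunit, changed by -0.47 ± 0.19 in input (adjusted p = 0.0790) and by -0.16 ± 0.12 in footprints (adjusted p = 0.296). With library totals the footprint estimates of ATP6V1A, ATP6V1B2, ATP6V1H and ATP6V0B were above 0.

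Both accessory proteins of the pump rose in footprints and missed the threshold in input, and the difference between the assays passed the test for neither (adjusted p = 0.922 for ATP6AP1 and 0.215 for ATP6AP2). ATP6AP1, an assembly factor of V0, had few input reads, 20 to 60 counts per library, and measured 7.30, 15.2 and 9.14 CPM with DMSO and 24.3, 11.4 and 13.2 CPM with trametinib. These overlapped (0.63 ± 0.34, adjusted p = 0.184), and the ATP6AP1 input change went from 0.22 without trametinib replicate 1 to 1.00 without DMSO replicate 2. Its footprints were far more numerous, at 157, 152 and 116 CPM with DMSO and 282, 296 and 206 CPM with trametinib (0.88 ± 0.17, adjusted p = 0.00284), with no overlap. ATP6AP2, the prorenin receptor, had input values of 83.6, 71.8 and 65.6 CPM with DMSO and 76.0, 82.1 and 71.5 CPM with trametinib (0.05 ± 0.16, adjusted p = 0.825). ATP6AP2 footprints were 173, 123 and 139 CPM with DMSO and 243, 239.7 and 215 CPM with trametinib (0.68 ± 0.14, adjusted p = 0.00413). Trametinib footprints were thus above every DMSO library while input was intermixed.

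**Figure D3:**
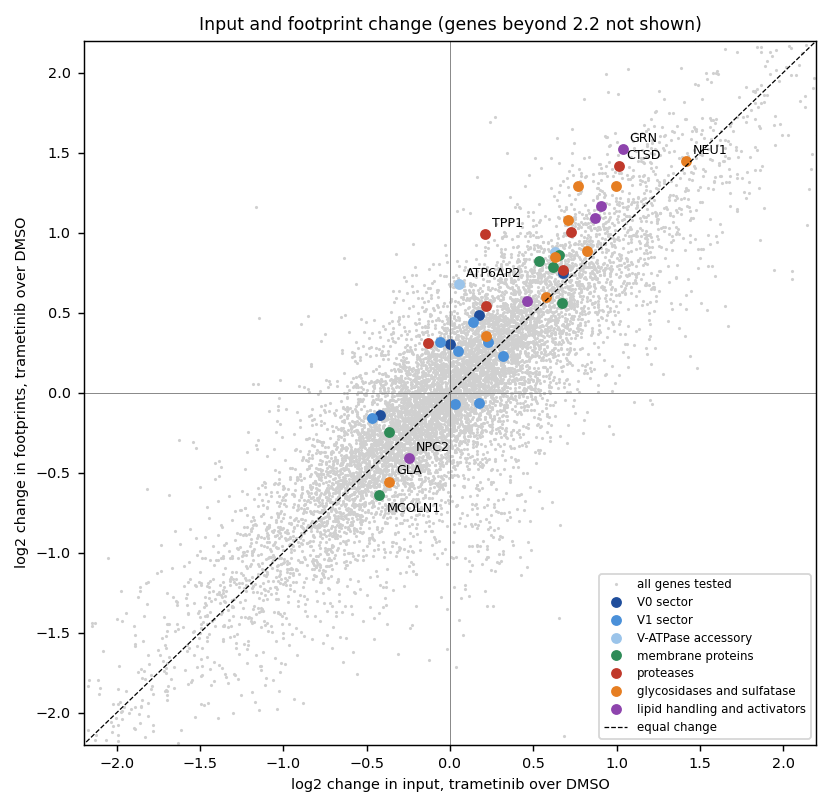
Log2 change in input (x axis) against log2 change in footprints (y axis), trametinib over DMSO, for the genes tested (grey) and the 40 genes of the set (coloured by role), with the dashed line at equal change. Most coloured points sit above the line, TPP1 (0.21 and 0.99) and ATP6AP2 (0.05 and 0.68) among the farthest, and NEU1 (1.42 and 1.45) lies near it.

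The next comparison asked whether ribosome density, footprints relative to input, changed with treatment. In the test of the interaction of assay and treatment over all 12 libraries, 0 of the 40 genes passed the threshold in edgeR, 0 in DESeq2 and 0 in limma-trend. Over all genes edgeR called 0.91% of densities changed, 0.0938% higher and 0.816% lower. At an unadjusted p under 0.05, 6 of the 40 were higher and 0 lower, and over all genes 939 of 10663 passed, 569 of them higher. Estimates were above 0 for 33 of the 40 (82.5%), compared with 59.4% of all genes, and the median change in density was 0.29, compared with 0.07. Without replicate 3 of trametinib input the median of the 40 was 0.19, and that of all genes fell too, to 0.015. With TMM within each assay the median of the 40 was 0.22 and that of all genes -0.01, so the level of these estimates moves with the scaling of the assays to each other. The median of the 14 V-ATPase genes was 0.34 and that of the other 26 was 0.29. The median SE of a density change was 0.211 for the set, so that many changes of the size seen here could not be detected at this input depth.

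The largest density changes were 0.85 ± 0.30 for TPP1 (adjusted p = 0.362), 0.70 ± 0.21 for ATP6AP2 (adjusted p = 0.215), 0.60 ± 0.19 for GLB1 (adjusted p = 0.302) and 0.52 ± 0.18 for CTSC (adjusted p = 0.353). ATP6AP2 was the only gene of the set that any run called. In a model with dish as a block, its change was 0.71 and its adjusted p was 0.0422. There, input and footprint libraries of equal treatment and replicate number were taken as 1 lysate, a pairing that the labels do not state. Without DMSO footprint replicate 1 the ATP6AP2 change was 0.85 and its adjusted p was 0.0446. Over all genes these runs called 31 and 12 densities higher and 127 and 101 lower. The log2 ratio of ATP6AP2 footprints to input, with 0.5 CPM added to each, was 1.10, 0.80 and 1.15 in the DMSO dishes and 1.79, 1.66 and 1.72 in the trametinib dishes. For TPP1 it was 1.56, 0.69 and 0.68 with DMSO and 1.68, 2.40 and 1.502 with trametinib, which overlapped.

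Over the whole set, the median log2 ratio relative to the median of all genes was 0.62, 0.48 and 0.54 in the 3 DMSO dishes and 0.81, 0.90 and 0.67 in the 3 trametinib dishes. The lowest trametinib dish was above the highest DMSO dish. That order of 3 against 3 dishes was not tested, and 0 of the 40 genes passed the density test in edgeR. The set had also been drawn up with earlier results of these data known.

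**Figure D4:**
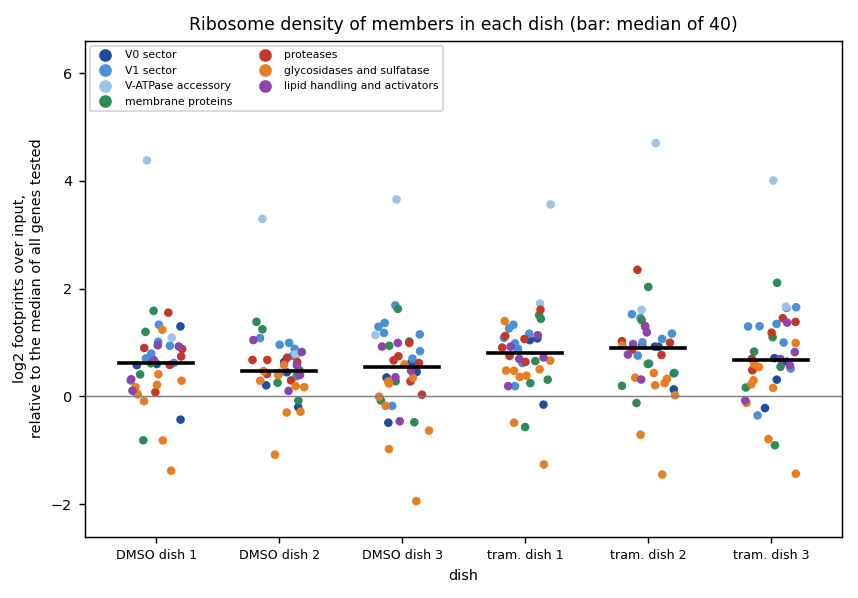
Log2 ratio of footprints to input in each dish (x axis), relative to the median of all 10663 genes (y axis), for the 40 genes coloured by role, with black bars at their median. Libraries of the same treatment and replicate number were taken as 1 dish. The bars lie above 0 in all 6 dishes, between 0.48 and 0.62 with DMSO and between 0.67 and 0.90 with trametinib, and the isolated point near the top of each dish is ATP6AP1.

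In DMSO alone the set already stood above other genes in ribosome density. Scaled to library totals, its median log2 ratio was 0.47, whereas the median of all genes was -0.13. LAMP2 at 1.40 ± 0.12, ATP6V1E1 at 1.24 ± 0.28 and LAMP1 at 1.00 ± 0.20 (SD, n = 3 dishes) were high, and MAN2B1 at -1.59 ± 0.46 and NAGLU at -0.82 ± 0.38 were low. ATP6AP1 reached 3.65 ± 0.57 and ranked 4 of 10663 genes, which rests on 20, 42 and 23 input counts. Per kilobase of coding sequence, PSAP was the most abundant mRNA of the set in DMSO, with 540.5 ± 78.5 CPM per kb in input and 744 ± 170 CPM per kb in footprints. CD63 followed with 349.8 ± 23.0 and 313 ± 18.2 CPM per kb. Of the tested V-ATPase genes, ATP6V1E1 had the highest footprint level at 206 ± 34.7 CPM per kb and ATP6V0A1 the lowest at 41.0 ± 2.13 CPM per kb. MAN2B1 and NAGLU had the lowest footprint levels of the tested genes, at 4.72 ± 0.966 and 4.13 ± 0.535 CPM per kb. These levels divide by the full coding length. For MAN2B1, 33.9% of that length also belongs to other symbols in GENCODE v44, so its level may be too low.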

How the data were processed

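Per the methods of the study, the authors trimmed adapters with the FASTX-toolkit, discarded rRNA and tRNA reads found with Bowtie 1.2.2, mapped the rest to the basic set of Gencode V38 and counted reads in the open reading frames of 1 gene symbol, so that reads shared between symbols were lost. The deposited table holds raw counts per gene and library, which were used here. Its normalized counts, fold changes and adjusted p-values, made by the authors with DESeq2 1.46.0, were not used. The columns of values per library not used numbered 12, all normalized counts. A gene was tested if 3 or more of the 6 input libraries held 10 or more counts, with edgeR 4.0.16 (quasi-likelihood F-test, two-sided, TMM) in R 4.3.3, within each assay for input and footprints and as the interaction of assay and treatment over 12 libraries for ribosome density. SE is the absolute log2 change divided by the square root of F. DESeq2 1.42.0 and limma 3.58.1 (prior count 2) were alternatives, and the code was tested on simulated data. Coding lengths and overlaps are from GENCODE v44. Values in each library are given for the 12 genes with the largest called changes in input or footprints. Of each other list, the gene with the largest called rise and fall in footprints is named. Other genes with values, ATP6AP2, LAMP1, ATP6V0E1, NPC1, CTSL, TFEB, TFE3 and those that fell, were chosen after their values were seen. The 42 genes and all lists were chosen with earlier results of these data known. Input and footprint RNA came from the same lysate, and libraries of the same treatment and replicate number were taken as such a pair. Deviations from the group mean, over 8419 genes, correlated within these pairs with Pearson's r of 0.803, 0.188 and 0.345 (DMSO replicates 1 to 3) and 0.149, 0.0730 and -0.119 (trametinib). Across treatments, libraries of the same number correlated at over 0.1 in all 3 pairs of footprints (0.110, 0.128 and 0.289) but not of input, so the fit with replicate number as a block is given where it changes a footprint call.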

Additional observations from a re-analysis of the deposited data

How the results depend on the processing

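The number of called genes in input and footprints kept its direction in every run that left out a library, with 12 to 17 higher and 0 to 1 lower in input (V-ATPase genes 0 to 2 higher and 0 to 1 lower) and 22 to 28 higher and 0 to 3 lower in footprints (0 to 3 lower outside the V-ATPase). Over all 10663 genes, calls in the same runs numbered 1069 to 1767 higher and 1221 to 1923 lower in input. In footprints they numbered 1878 to 3176 higher and 2012 to 3247 lower. Medians over these runs were 0.26 to 0.44 in input for the 40 genes, 0.074 to 0.16 for V-ATPase genes and 0.59 to 0.69 for the others. In footprints they were 0.57 to 0.68 for the 40 genes and 0.25 to 0.43 for V-ATPase genes, and in ribosome density 0.19 to 0.31, 0.23 to 0.35 and 0.19 to 0.32 for the 40, the V-ATPase genes and the others, with 0 to 1 called higher (ATP6AP2). Over all genes the density median in these runs was 0.015 to 0.083, with 1 to 12 called higher. Scaling footprints to library totals raised the median of all genes by 0.18 and made 64.8% of all calls higher instead of 48.3% (3577 higher and 1944 lower). It gave 0 lower among the 40 and among the genes outside the V-ATPase, 10 V-ATPase genes higher, and medians of 0.76, 0.49 and 1.01 for the 40, the V-ATPase genes and the others. For ribosome density the medians with totals were 0.40, 0.45 and 0.39, and that of the 40 was 0.22 with median-of-ratios factors, 0.22 in DESeq2 and 0.22 with TMM within each assay. The median of all genes moved too, at 0.18 with totals, -0.00 with median-of-ratios factors, -0.00 in DESeq2 and -0.01 with TMM within each assay. The baseline median of the 40 in DMSO was 0.55 with median-of-ratios factors. At an adjusted p under 0.1, 2 genes were lower in input, both V-ATPase genes, and 8 of the 14 V-ATPase genes were higher in footprints. Over all 10663 genes, 2223 were lower in input and 2975 higher in footprints at that threshold. Over all genes, DESeq2 called 37 densities higher and 150 lower, and edgeR 10 and 87. A replicate block by dish gave 31 and 127, and 1 of the 40, a V-ATPase gene, was then higher. A replicate block by number across treatments, where Pearson's r of the deviations was 0.0735, 0.0615 and 0.321 in input, gave 1 gene lower in input, the V-ATPase gene ATP6V0B, and added SGSH and LAMP2 to the calls in input. In footprints the block by number added CTSL, GUSB and ATP6V1E1, lost CTSC and changed no other call among the 40. Over single genes that any run called, 271 of the alternative values in input kept their side of the threshold, 10 gained and 13 lost the call, and in footprints 441 kept it, 22 gained and 27 lost it. Of 63 values never called in any run, 22 changed sign in at least 1 alternative. The cause was not tested. Input depth limits what can be said of ribosome density.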

Other observations

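Lysosomal genes outside the set were examined in 5 lists with 117 symbols, of which 93 were tested, with TMM scaling alone. Of these, 23 were higher and 5 lower in input, and 44 were higher and 12 lower in footprints, with median changes of 0.33 and 0.36. Over all genes tested, 15.4% were higher and 16.8% lower in input, and 23.9% were higher and 25.6% lower in footprints. Among the other hydrolases, in footprints 21 of 34 were higher and 2 lower (median 0.60), and in input 16 were higher and 1 lower (median 0.57). CTSH, an aminopeptidase of the cathepsin family, rose in footprints from 28.1 ± 2.64 to 86.7 ± 0.685 CPM (SD, n = 3, log2 change 1.63 ± 0.11, adjusted p = 6.52e-06). CTSV, a cathepsin closely related to CTSL, fell from 42.4 ± 4.92 to 24.4 ± 2.15 CPM (-0.79 ± 0.13, adjusted p = 0.00129). Reads shared between such related genes were not counted.

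Of 23 further lysosomal membrane proteins, 13 were higher and 3 lower in footprints (median 0.46), and 2 were higher and 1 lower in input (median 0.19). SIDT2, a transporter of nucleic acids, rose by 1.34 ± 0.18 in footprints (adjusted p = 0.000375), and TMEM175, a proton and potassium channel, fell by 0.76 on the log2 scale (adjusted p = 0.0293). Of 18 genes that sort hydrolases, 6 were higher and 6 lower in footprints. GNPTAB, the phosphotransferase that starts the mannose phosphate tag, rose by 1.06 ± 0.12 (adjusted p = 0.000122), and AP1M1, a subunit of the clathrin adaptor AP-1, changed by -0.84 ± 0.13 (adjusted p = 0.000744). Of 4 other V-ATPase genes tested, TCIRG1, another isoform of the large V0 subunit, rose by 0.67 ± 0.15 and ATP6V0A2 changed by -0.56 ± 0.13 in footprints (adjusted p = 0.00647 and 0.00576). Among 14 regulators of lysosomal mTORC1 and MiT/TFE signalling, 3 rose in footprints, a share below that of all genes, and 0 fell, with RRAGB, a Rag GTPase, at 1.03 ± 0.14 (adjusted p = 0.000368). The transcripts of TFEB (-0.42 ± 0.18, adjusted p = 0.0845) and TFE3 (0.26 ± 0.41, adjusted p = 0.628) did not pass the threshold in footprints. Ribosome density was called for 0 of the 93 genes in edgeR, and 8 had an unadjusted p under 0.05, all higher, against 939 of all 10663 genes, 569 of them higher.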
